A study of Mus musculus with 12 samples.

Results

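The 9 genes described here encode the lymphotoxin beta receptor, its ligands and the noncanonical NF-kB route beneath it. They were chosen by symbol from the 32285 genes of the deposited feature lists, and each symbol was found once. They comprise 4 ligands (Lta, Ltb, Tnfsf14 and Tnfsf11), 1 receptor (Ltbr) and 4 signalling genes (Map3k14, Traf3, Relb and Nfkb2), counted in single cells of mouse lymph node. Lymphotoxin alpha and beta are made by lymphocytes and form a membrane trimer that binds the lymphotoxin beta receptor on stromal and endothelial cells. Tnfsf14 (LIGHT) is a further ligand of that receptor, whereas Tnfsf11 (RANKL) binds its own receptor, Tnfrsf11a (RANK), and feeds the same route. In resting cells Traf3 keeps the kinase Map3k14 (NIK) low, and on receptor binding NIK is freed, the Nfkb2 precursor is processed and its product enters the nucleus with Relb. In lymph nodes this route is known for shaping high endothelial venules (HEV), through which lymphocytes enter, and the chemokine-producing stroma.

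The mice were of the C57BL/6 strain, aged 7 to 10 weeks, and all were ATG12 fl/fl, so the controls carried the floxed gene too. They either had or lacked CDH5 CreER, an inducible recombinase driven in endothelial cells generally and not in HEV alone, and every group received tamoxifen 5 times. The abdomen was treated with 50 ul of 4% oxazolone, a contact sensitiser, with the acetone and olive oil solvent alone as the vehicle control, and nodes were collected 3 or 7 days later, labelled day 3 and day 7. The labels give no collection day for the vehicle libraries, so the treatment comparisons may not be matched in time. Digested nodes were split on CD45 beads and then sorted, which gave an endothelial fraction (CD31 libraries) and an immune fraction (CD45 libraries). Each of the 12 combinations of label, treatment and fraction was 1 library, and the number of mice behind a library is not given in the sources used here. Differences between libraries of 1 time point therefore have no replicate check.

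The UMIs of a library (unique molecular identifiers, 1 per captured transcript) summed to between 36724887 and 76186801, and 5698 to 10553 cells per library were kept. Pairs of libraries shared 7 to 31 cell barcodes, at most 0.38% of the smaller library. Some libraries stood apart or went against their labels. Both vehicle libraries labelled Cre-positive had Xist at 0.105 to 0.330 CPM (UMI counts scaled to a common library total) against 233 to 430 in the other 10, and their summed Y-linked genes at 276 to 297 CPM against 58.0 to 167. By these genes both read as male and the other 10 as a mix of sexes. Sex thus cannot be told apart from the vehicle Cre-positive group in the comparisons below. Cells with a Y-linked and no Xist UMI, read as male, were also fitted apart. Germinal centre B cell-like cells, which form in an immune response, numbered 212 at vehicle and 8 at day 7 in the CD45 libraries labelled Cre-negative, but 18 at vehicle and 250 at day 7 in those labelled Cre-positive. Plasma cell-like cells followed the same order, with 142, 3, 6 and 152. The library labelled vehicle Cre-negative was thus like the one labelled day 7 Cre-positive in these cells, and treatment comparisons are given below with and without single libraries. An added feature, mRFP, listed for 4 of the CD31 libraries, had 364, 930 and 342 UMIs in those labelled Cre-positive and 0 in the one labelled day 7 Cre-negative, so it followed the label where it was listed. The other 8 libraries did not list it, and whether libraries were exchanged was not tested further. Atg12 was not lower in blood endothelial-like cells labelled Cre-positive (74.1, 62.3 and 65.3 CPM) than in those labelled Cre-negative (52.2, 47.0 and 51.5 CPM), although a 3-prime count may lie outside the deleted part and then checks nothing.

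Values below are CPM, here the gene's share of all UMIs summed over a cell class in 1 library, on the same scale. They are listed for vehicle, then day 3, then day 7, and in each pair the library labelled Cre-negative comes first. Classes were formed by clustering each fraction without the 9 genes or the pathway lists, so a class is named by other genes and the order of classes is a description with no test. Stromal cells were found in the libraries labelled CD45 (57 stromal-like cells in all 6 CD31 libraries), although Ptprc, which encodes CD45, was at 11.2 to 19.2 CPM in their largest cluster against 1004 to 1305 CPM in T cell-like cells. That cluster was led by Enpp2, with Cxcl12, Lepr and Cxcl13 among its leading genes. It stayed outside the stromal-like class because Enpp2 was also on the list of HEV markers.

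In the GRCm38 build, Ltb spans chr17:35194439-35196320 on the plus strand and Lta chr17:35203165-35205351 on the minus strand, close to each other, with Tnfsf14 at chr17:57189492-57194177 on the minus strand. Tnfsf11 spans chr14:78277445-78308043 and the receptor gene Ltbr chr6:125306571-125313885, both on the minus strand. The signalling genes are Map3k14 at chr11:103219762-103267472 (minus), Traf3 at chr12:111166370-111267153 (plus), Relb at chr7:19606217-19629438 (minus) and Nfkb2 at chr19:46304320-46312385 (plus). Upstream sequences are shown for Ltb, the ligand gene whose level differed most between endothelial classes, and for Ltbr, the receptor gene counted in all of them. They come from the RefSeq promoter table for GRCm38.p6, end at the base before the annotated gene start and leave out annotated exons. Capitals mark a match to the NF-kB consensus on either strand.
Ltb upstream, chr17:35194257-35194438, plus strand: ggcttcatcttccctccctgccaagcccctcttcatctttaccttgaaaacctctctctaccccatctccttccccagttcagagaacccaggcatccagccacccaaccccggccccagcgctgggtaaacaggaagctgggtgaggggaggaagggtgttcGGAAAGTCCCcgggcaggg
Ltbr upstream, chr6:125313886-125314135, minus strand: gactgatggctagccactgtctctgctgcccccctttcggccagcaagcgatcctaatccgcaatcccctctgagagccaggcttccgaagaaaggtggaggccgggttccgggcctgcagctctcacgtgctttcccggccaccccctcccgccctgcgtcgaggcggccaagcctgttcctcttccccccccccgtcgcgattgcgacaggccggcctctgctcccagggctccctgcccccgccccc
The Ltb window of 182 bases held 1 match, which reads GGAAAGTCCC on the strand shown, is a match on the opposite strand and starts 19 bases before the window's end. Of 32851 promoter windows cut to that length, 2.84% held such a match. The Ltbr window of 250 bases held 0, and 3.9% of windows of that length held one. A match is a run of letters and was not tested as a binding site.

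Ltb, the membrane anchor of the lymphotoxin trimer, was counted in lymphocytes and, at a lower level, in lymphatic endothelium. In T cell-like cells of the CD45 libraries its values were 642 and 710, 731 and 627, and 756 and 687 CPM. The B cell-like class held 596 and 786, 602 and 475, and 843 and 639 CPM. The ranges of both classes overlapped, and gamma-delta T cell-like cells held 792 to 1317 CPM, above every T cell-like value and overlapping the B cell-like range. After thinning each cell to 1000 UMIs, 44.0% to 50.1% of T cell-like cells and 37.0% to 56.0% of B cell-like cells had an Ltb UMI (87.9% to 92.5% and 74.4% to 86.1% unthinned).

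Lymphatic endothelial-like cells, which line the node's sinuses, held Ltb at 236 and 226, 126 and 137, and 270 and 218 CPM. Blood endothelial-like cells of the same libraries, a class that includes the HEV-like cells, held 11.7 and 15.0, 8.10 and 8.88, and 18.4 and 11.8 CPM. Every lymphatic value thus lay above every blood endothelial value, and both day 3 libraries were the lowest in either class. Prox1, the factor that specifies lymphatic endothelium, was in the lymphatic cells at 676 to 955 CPM against 2.08 to 4.45 CPM in blood endothelial-like cells. After thinning, 11.3% to 18.9% of lymphatic cells had an Ltb UMI (34.4% to 55.3% unthinned, median depths 6455 to 8341 UMIs), against 0.526% to 1.15% of blood endothelial-like cells (2.41% to 5.22% unthinned, 3135 to 4657 UMIs).

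Lymphatic endothelium was uneven in Ltb. Its cluster led by Ccl20 held 412 and 339, 256 and 261, and 398 and 356 CPM. The cluster led by Lyve1 held 288 and 184, 144 and 173, and 239 and 256 CPM. For the cluster led by Ackr4, a scavenging chemokine receptor, the values were 149 and 149, 41.2 and 49.7, and 139 and 145 CPM. Within each library the Ccl20-led cluster was above the Ackr4-led one, and the Ackr4-led cluster showed a wide gap between the day 3 libraries and the other 4. The Ccl20-led cluster also held Madcam1, an addressin for lymphocytes, at 248 to 439 CPM, against 0.502 to 3.49 CPM in the Ackr4-led cluster.

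Lymphocyte RNA was measured beside these values. Free RNA, taken from barcodes with under 100 UMIs, held Ltb at 228 and 300, 160 and 169, and 267 and 223 CPM, and the B cell gene Cd79a at 133 to 247 CPM. Lymphatic endothelial-like cells held Cd79a at 1.09 to 13.6 CPM, against 2011 to 2894 CPM in B cell-like cells of the CD45 libraries. The T cell gene Cd3e was at 0.910 to 7.64 CPM in lymphatic endothelial-like cells, against 383 to 478 CPM in T cell-like cells. Over the whole lists, the 6 T cell markers summed to 7.83 to 69.2 CPM in lymphatic endothelial-like cells and 4230 to 4879 CPM in the T cell-like class. The B cell markers other than Ebf1, which endothelium and stroma also express, summed to 5.46 to 31.3 CPM and 4868 to 5395 CPM. Blood endothelial-like cells of the same libraries, with little Ltb, held Cd79a at 2.55 to 8.80 CPM and T cell markers at no more than 25.1 CPM in sum. By cluster, the summed T cell markers were 7.47 to 133 CPM in the Ccl20-led, 6.48 to 112 CPM in the Lyve1-led and 8.87 to 35.3 CPM in the Ackr4-led cluster. In all 3 the library labelled vehicle Cre-negative was the highest in these markers, and in the Ccl20-led and Lyve1-led clusters it was the highest in Ltb as well. In that library the barcodes removed as doublets were shallower than those kept. The part of lymphocyte RNA in the lymphatic Ltb level was not tested further.

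**Figure D1:**
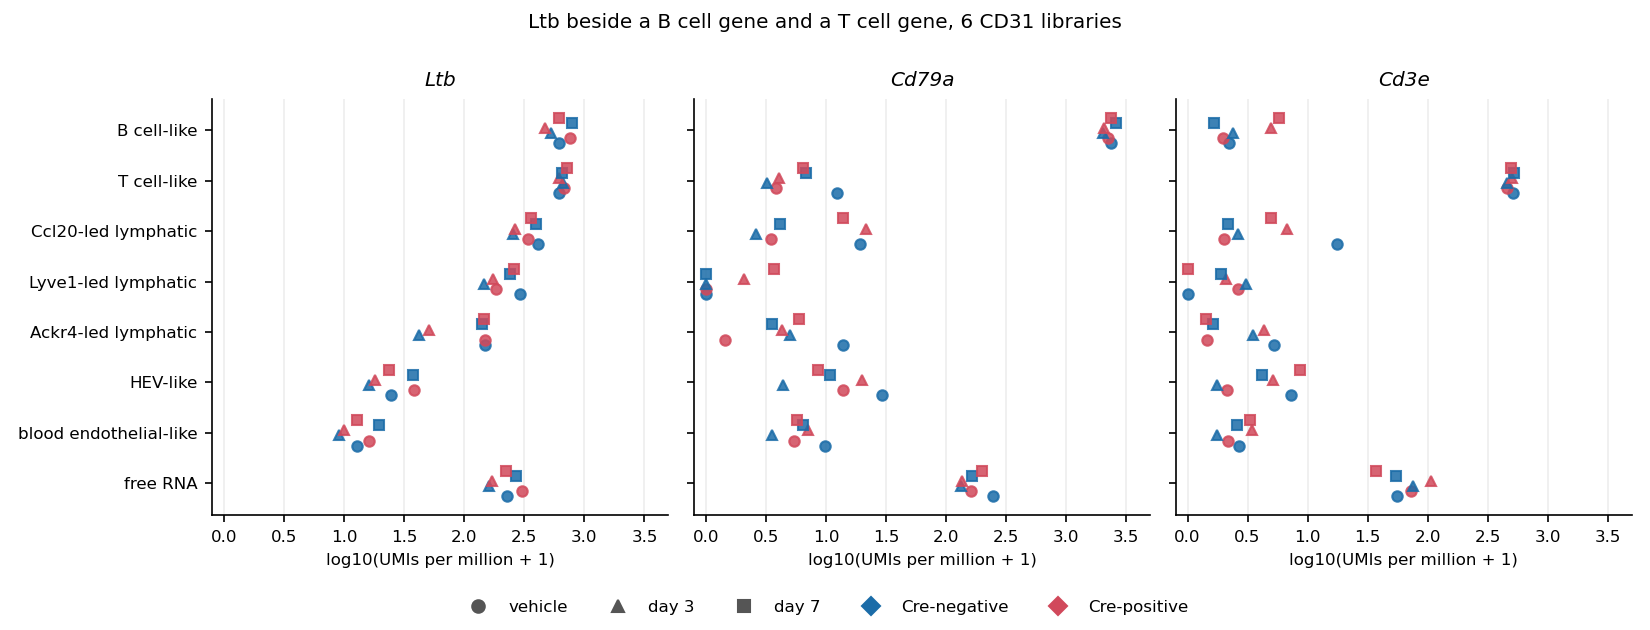
Levels of Ltb, the B cell gene Cd79a and the T cell gene Cd3e in 6 CD31 libraries, as log10(CPM + 1), 1 point per library with shape for treatment and colour for label. The 3 lymphatic clusters reach toward the lymphocytes in Ltb (41.2 to 412 CPM) and hold at most 20.6 CPM of Cd79a and 16.6 CPM of Cd3e.

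At day 3 against vehicle, Ltb was lower in lymphatic endothelial-like cells by a log2 difference of -0.78 (SE 0.24), and the day 3 and vehicle libraries did not overlap. This did not pass the test across 12942 genes (edgeR's quasi-likelihood test with Benjamini-Hochberg adjustment, adjusted p = 0.919, unadjusted p = 0.0106), in which 0 genes, or 0.0%, were called. Of all genes there, 4.98% had an unadjusted p under 0.05. Free RNA was lowest in Ltb in the same libraries, and its part in the difference was not tested.

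Lta encodes the soluble subunit of the lymphotoxins. It was counted in B cell-like cells at 11.2 to 22.8 CPM, in T cell-like cells at 7.32 to 14.7 CPM and in germinal centre B cell-like cells at 16.4 to 50.4 CPM (2 to 75 UMIs a library). The B cell-like range overlapped both others, and every T cell-like value lay below every germinal centre one. Lymphatic endothelial-like cells held 2 Lta UMIs in all 6 CD31 libraries and blood endothelial-like cells 17, so Ltb was present in lymphatic endothelium almost without its partner subunit. In the Treg cell-like cells (regulatory T cells) of the CD45 libraries, Lta stood at 12.3 and 53.1, 16.9 and 12.0, and 44.0 and 21.4 CPM, from 24 to 80 UMIs a library. The Treg cell-like cells of the CD31 libraries, sequenced apart, held 13.3 and 54.3, 10.4 and 9.73, and 49.5 and 21.3 CPM. In both fractions the library labelled vehicle Cre-positive was the highest and the one labelled day 7 Cre-negative the next.

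**Figure D2:**
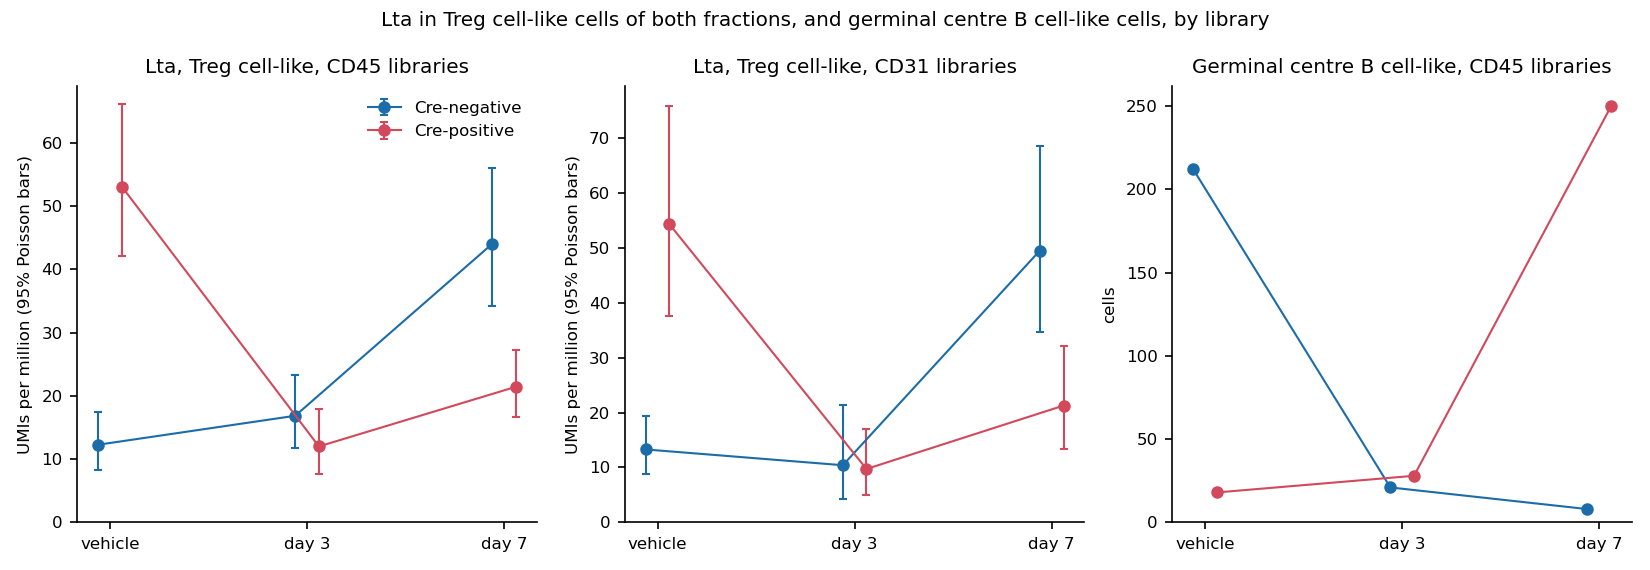
Lta in Treg cell-like cells of the CD45 and CD31 libraries in CPM, and the number of germinal centre B cell-like cells in the CD45 libraries, by treatment, with 1 library per point, bars for 95% Poisson intervals and lines joining libraries of 1 label. The libraries labelled vehicle Cre-positive (53.1 and 54.3 CPM) and day 7 Cre-negative (44.0 and 49.5 CPM) are high in Lta and hold 18 and 8 germinal centre B cell-like cells.

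The log2 ratio of day 7 to vehicle for Lta in Treg cell-like cells of the CD45 libraries was 1.84 (95% interval 1.21 to 2.51) under the Cre-negative label and -1.31 (-1.80 to -0.82) under the Cre-positive label. These intervals, like all intervals here, cover counting error only, and the difference between the labels was not tested. In B cell-like cells Lta stood at 15.9 and 19.96, 11.8 and 11.2, and 22.8 and 17.1 CPM, with both day 3 libraries lowest. The day 3 difference there was -0.63 (SE 0.19, unadjusted p = 0.00785) and did not pass edgeR's quasi-likelihood test after Benjamini-Hochberg adjustment (adjusted p = 0.335), in a comparison that called 0.18% of 11660 genes. In that comparison 9.75% of all genes had an unadjusted p under 0.05. Without the filter on low counts Lta passed, in a fit that called 1.78% of genes. Over the alternatives, which include leaving out single libraries, its log2 difference lay between -0.37 and -0.89.

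Tnfsf14 was scarce, with 915 UMIs over all barcodes of the 12 libraries. It was highest in gamma-delta T cell-like cells, at 32.6 and 43.3, 31.2 and 27.5, and 31.6 and 21.2 CPM from 9 to 29 UMIs a library. NK-like cells held 10.0 to 26.7 CPM and overlapped them. B cell-like cells of the CD45 libraries held 3 Tnfsf14 UMIs in all and blood endothelial-like cells 2.

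Tnfsf11 was counted most in a part of the stroma, and at mostly lower levels in T cells. The Enpp2-led stromal cluster held 162 and 77.0, 225 and 209, and 72.1 and 170 CPM, and the libraries labelled vehicle Cre-positive and day 7 Cre-negative were the low ones. A small cluster led by Syt1, which belongs to the stromal-like class and had 7 to 50 cells a library, held 93.7 to 519 CPM from 309 UMIs in all and overlapped it, while the stromal-like class as a whole held 2.94 to 25.7 CPM. Treg cell-like cells, at 28.6 to 80.2 CPM, and gamma-delta T cell-like cells, at 23.9 to 88.7 CPM, reached into the range of the Enpp2-led cluster. All T cell-like cells together held 9.38 to 31.7 CPM, against 0.133 to 0.721 CPM in B cell-like cells. The thinned share of cells with a Tnfsf11 UMI was 5.08% to 16.6% in the Enpp2-led cluster (15.9% to 50.3% unthinned) and at most 0.177% in B cell-like cells (0.248% unthinned).

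Clustering at resolution 1.5 split the stroma into 7 clusters, which are described here by a choice made after the clusters had been seen. Tnfsf11 stood at 479 and 305, 564 and 622, and 288 and 498 CPM in a cluster led by Pcdh15, which held 36 to 142 cells a library. The same cluster held Cxcl13, the chemokine that draws B cells to follicles, at 15840 to 29377 CPM. A cluster led by Saa3, an acute-phase gene, also had Acta2, Tagln and Rgs5, known from contractile and perivascular cells, among its leading genes and stayed unnamed for that reason. It held 221 and 58.3, 216 and 166, and 125 and 205 CPM of Tnfsf11. That cluster was made almost wholly of day 3 cells, with 867 and 633 cells in the day 3 libraries and 8 to 49 in each of the others. A cluster led by 6530403H02Rik, in which Cxcl12 reached 3770 to 8797 CPM, held 93.2 and 69.8, 94.3 and 223, and 57.6 and 129 CPM of Tnfsf11. It had 119 and 130 cells at day 3 and 358 to 768 in the other libraries. The Mgp-led, Pi16-led and Apod-led clusters held at most 6.69 CPM of Tnfsf11.

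**Figure D3:**
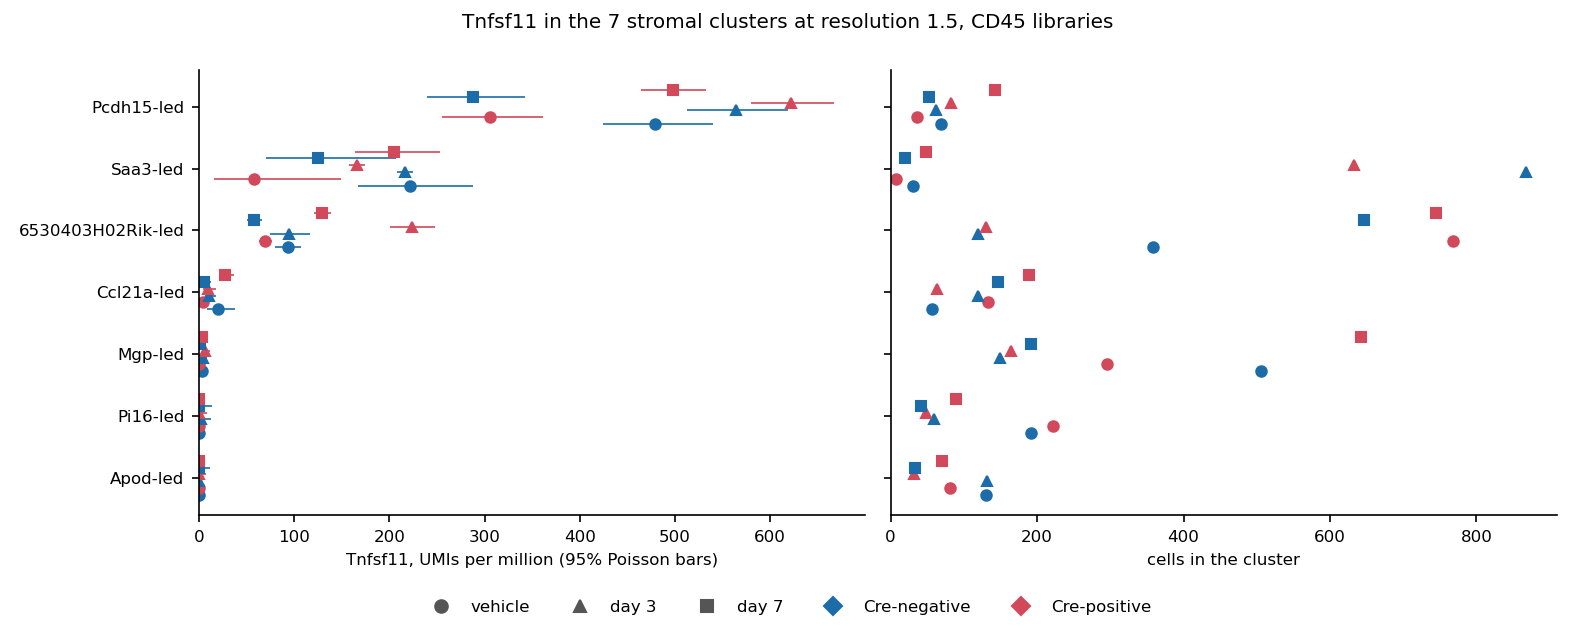
Tnfsf11 in CPM with 95% Poisson bars (left) and cells per library (right) in 7 stromal clusters of the CD45 libraries, each named by its leading gene, with shape for treatment and colour for label. Tnfsf11 is highest in the small Pcdh15-led cluster (288 to 622 CPM) and the Saa3-led cluster holds cells almost only at day 3.

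The day 3 level of the Enpp2-led cluster was thus a sum over a different mix of these cells: the Saa3-led cluster supplied 853 and 632 of its cells at day 3, and 8 to 45 in each other library. In the main day 3 fit of the Enpp2-led cluster, Map3k14 was the 1 member with an unadjusted p under 0.05 (adjusted p = 0.170 by edgeR). Of all genes in that fit, 28.3% had an unadjusted p under 0.05. Tnfsf11 did not pass the test there, and passed it when the vehicle library labelled Cre-negative was left out (2.99% of genes called), when the day 7 library labelled Cre-negative (15.5%) or Cre-positive (15.9%) was left out, or with no filter on low counts (11.7%). At resolution 1.5 no cluster was led by Enpp2, and the stromal clusters then left without a name, led by Pcdh15, Saa3 and Ccl21a, together gave 1 call, Ltb lower, with 6.45% of genes called. Its known receptor Tnfrsf11a was counted at 168 to 281 CPM in lymphatic endothelial-like cells, 65.6 to 151 CPM in HEV-like cells and 225 to 417 CPM in migratory DC-like cells. It reached 0.307 CPM in the Enpp2-led cluster and 0.753 CPM in T cell-like cells.

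Ltbr, the receptor, was counted in every endothelial and stromal class and was near 0 in lymphocytes. Blood endothelial-like cells held 36.8 and 35.3, 40.4 and 36.6, and 36.3 and 35.3 CPM. HEV-like cells held 31.1 and 25.7, 34.3 and 30.1, and 29.5 and 26.4 CPM, and lymphatic endothelial-like cells 26.4 to 33.4 CPM. In stroma the ranges were 29.9 to 44.7 CPM for the Enpp2-led cluster and 35.5 to 44.5 CPM for stromal-like cells. The blood endothelial-like values all lay above the HEV-like and lymphatic ones, which overlapped each other, and both stromal classes overlapped. The lymphatic clusters differed, with 28.5 to 54.6 CPM in the Lyve1-led one, which overlapped the blood endothelial-like range. The Ackr4-led cluster held 25.6 to 35.1 CPM and the Ccl20-led one 19.1 to 29.2 CPM. Within blood endothelium, capillary-like cells held 39.4 to 49.0 CPM, clear of the HEV-like range.

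T cell-like cells of the CD45 libraries held 4 Ltbr UMIs and B cell-like cells 11 over all 6 libraries, or at most 0.251 and 0.616 CPM. Lymphocytes thus held Ltb almost without the receptor, while lymphatic endothelial-like cells held both. In macrophage-like cells Ltb was at 94.3 to 274 CPM, below the free RNA of the same CD45 library (301 to 614 CPM) each time, with Cd79a at 17.97 to 36.3 CPM, and the part of free RNA in it was not tested. After thinning, 3.36% to 4.26% of blood endothelial-like cells had an Ltbr UMI (15.3% to 17.3% unthinned). In B cell-like cells of the CD45 libraries the thinned share was at most 0.0815%, and free RNA of the CD31 libraries held Ltbr at 20.3 to 26.5 CPM. Outside stroma and endothelium, macrophage-like cells held 8.87 to 31.4 CPM of Ltbr (free RNA of these libraries 7.24 to 21.7 CPM) and migratory DC-like cells 3.86 to 11.3 CPM.

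**Figure D4:**
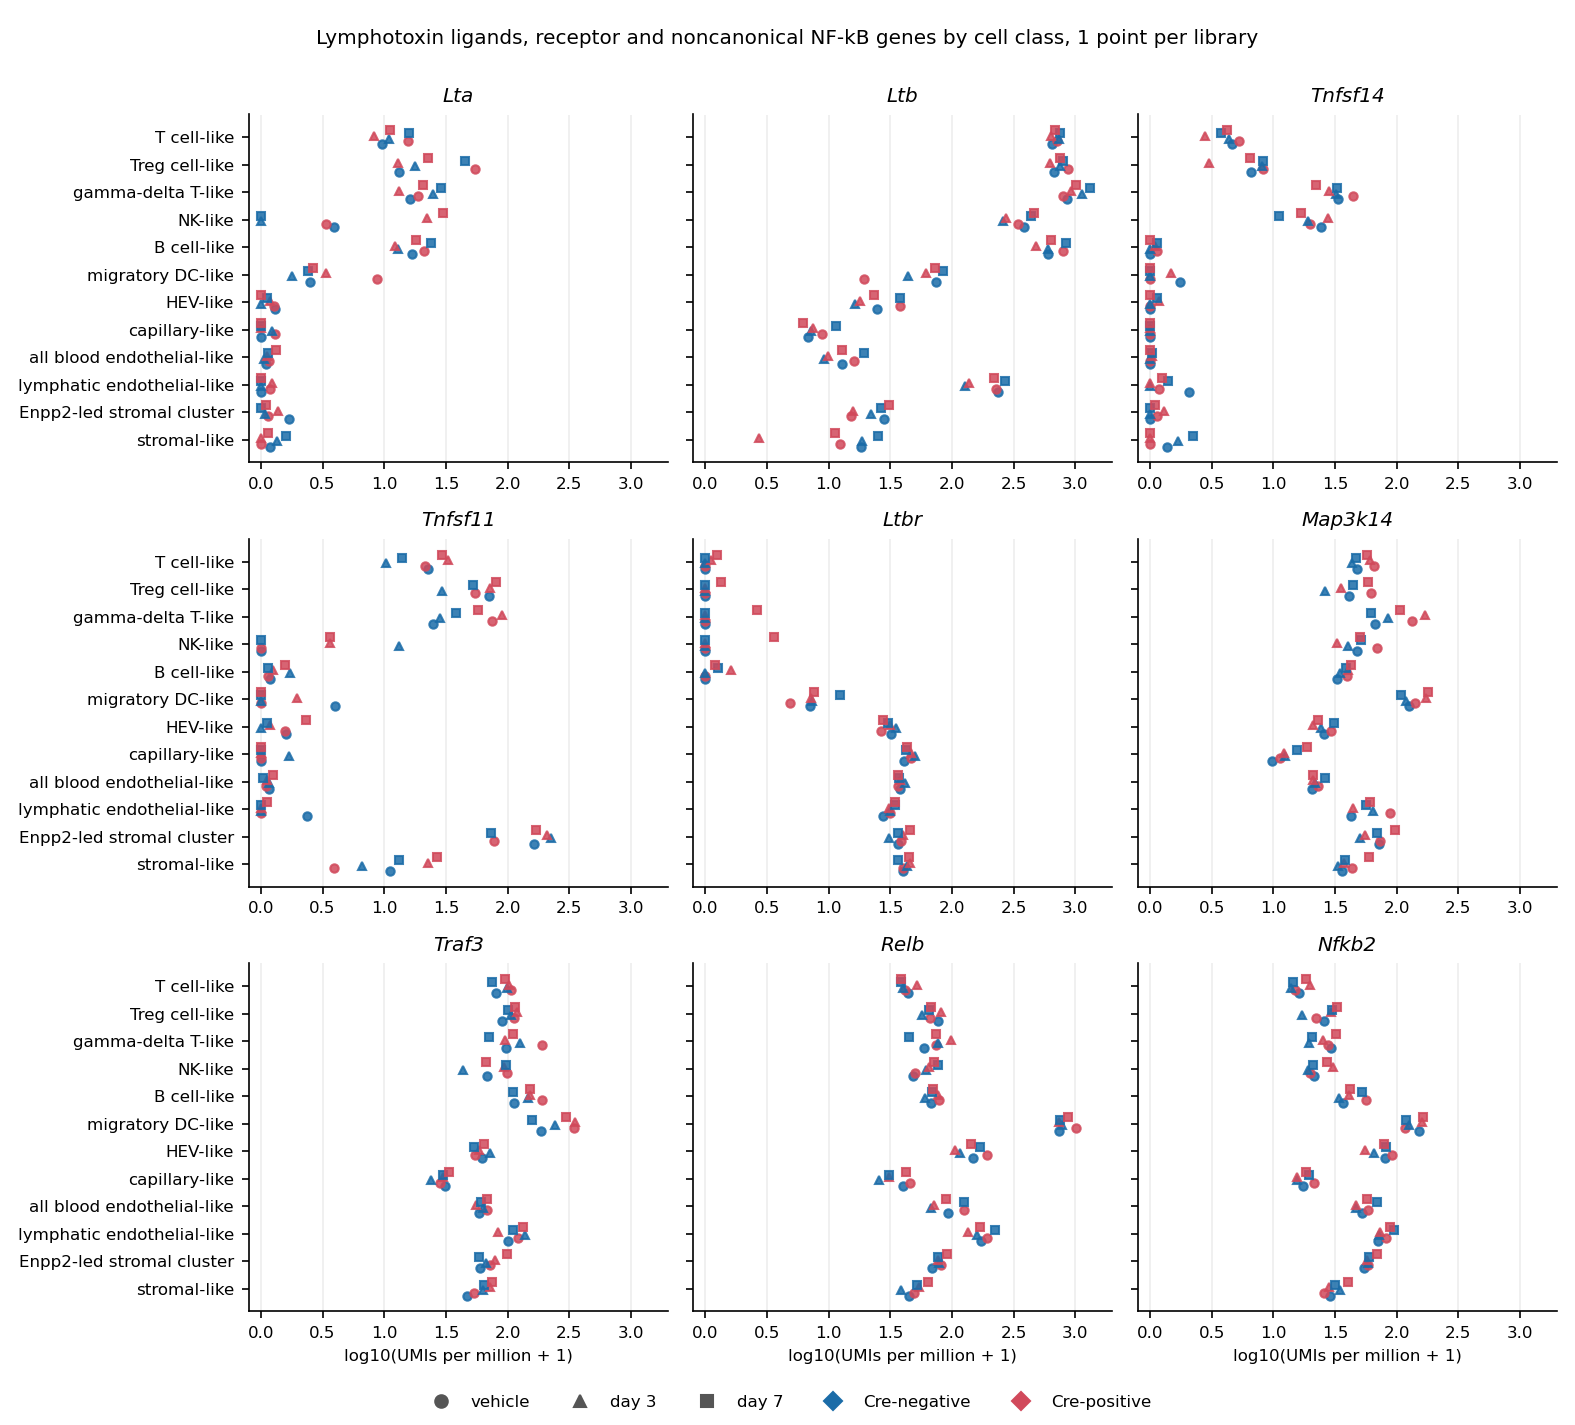
Levels of the 9 genes in 12 cell classes as log10(CPM + 1), with 1 point per library, shape for treatment and colour for label; endothelial classes come from the CD31 libraries and the others from the CD45 libraries. Ltbr is near 0 in T cell-like and B cell-like cells and counted in all endothelial and stromal classes, while Relb peaks in migratory DC-like cells (736 to 1003 CPM).

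Across 43 classes of both fractions, the genes whose log2 levels followed Ltbr most closely among 12539 compared were Wdfy3 (Pearson r = 0.956), Zfyve9 (0.952) and Scamp1 (0.939). These correlations describe classes that share libraries and are not tests.

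Relb and Nfkb2, the pair of subunits at the end of the route, were counted in all classes. Relb was highest in migratory DC-like cells, at 736 to 1003 CPM, and of the endothelial clusters in the Ccl20-led lymphatic one, at 235 and 274, 252 and 218, and 294 and 242 CPM. HEV-like cells held 104 to 189 CPM and capillary-like cells 24.4 to 44.5 CPM, so that these ranges did not overlap. Nfkb2 was ordered alike: 116 to 161 CPM in migratory DC-like cells, 97.4 to 127 CPM in the Ccl20-led lymphatic cluster, 54.6 to 90.4 CPM in HEV-like cells and 14.5 to 20.3 CPM in capillary-like cells. Over the 43 classes Nfkb2 was the gene most like Relb (r = 0.881), before Pgap2 (0.856) and Pfkfb3 (0.827).

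Map3k14 (NIK) was highest by median in migratory DC-like cells, at 107 to 178 CPM, and gamma-delta T cell-like cells overlapped them at 61.2 to 168 CPM. The Enpp2-led stromal cluster held 49.6 to 95.2 CPM, lymphatic endothelial-like cells 41.7 to 87.0 CPM, and blood endothelial-like cells 19.7 to 25.2 CPM. Traf3, which marks NIK for degradation, stood at 156 to 350 CPM in migratory DC-like cells, 110 to 188 CPM in B cell-like cells and 54.3 to 67.0 CPM in blood endothelial-like cells. Every lymphatic endothelial-like value of either gene lay above every blood endothelial-like value. In lymphatic endothelial-like cells Map3k14 read 41.7 and 87.0, 63.4 and 42.9, and 55.4 and 59.4 CPM, with the library labelled vehicle Cre-positive highest.

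The genes were then compared between treatments and labels, in HEV-like cells first. Relb stood there at 147 and 189, 114 and 104, and 166 and 140 CPM. Nfkb2 stood at 79.4 and 90.4, 65.0 and 54.6, and 81.1 and 77.8 CPM. Ltb, at a low level, stood at 23.6 and 37.1, 15.3 and 17.0, and 36.7 and 22.4 CPM. In each of these 3 genes both day 3 libraries lay below the other 4. They are the 3 of 6 members tested with an unadjusted p under 0.05 by edgeR at day 3, which 22.3% of all genes also had. The share of all genes that separated in this way was not counted. Ltbr, given above, was higher at day 3 than at vehicle under each label. Map3k14 held 19.9 to 29.7 CPM and Traf3 52.6 to 71.3 CPM in these cells.

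The day 3 differences in HEV-like cells, averaged over the labels, were -0.63 for Relb (SE 0.19), -0.51 for Nfkb2 (SE 0.15) and -0.91 for Ltb (SE 0.32) on the log2 scale. None passed edgeR's quasi-likelihood test with Benjamini-Hochberg adjustment over 11457 genes: the adjusted p was 0.117, 0.116 and 0.152, and the unadjusted p 0.00935, 0.00914 and 0.01999. The comparison called 0 of the 6 members tested and 1.01% of all genes, and DESeq2 called 0 of 9 members and 290 of 20356 genes. The 6 members had a median log2 difference of -0.41, against -0.01 over all genes. When the library labelled vehicle Cre-negative was left out, all 3 genes passed, in a fit that called 7.13% of genes, and they also passed with no filter on low counts, where 6.46% were called. Without the library labelled day 7 Cre-negative, Ltb alone passed (5.62% of genes called). When the library labelled vehicle Cre-positive or day 3 Cre-positive was left out, or in cells with a Y-linked and no Xist UMI, 0 members had an unadjusted p under 0.05. Over the alternatives the log2 difference lay between -0.30 and -0.92 for Relb, -0.30 and -0.71 for Nfkb2, and -0.35 and -1.37 for Ltb. The free RNA values of Ltb given above lay over the HEV-like level in every library and were lowest in the same day 3 libraries, and their part in the HEV-like difference was not tested.

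Of the pathway list, which holds 23 other ligands, receptors and signalling genes, 16 could be tested in HEV-like cells. The day 3 comparison there called 116 of 11457 genes. Birc3 (cIAP2), the ubiquitin ligase that acts with Traf3 on NIK and is itself raised by NF-kB, was the 1 called, and it was lower at day 3. It stood at 360 and 332, 137 and 127, and 369 and 203 CPM, a log2 difference of -1.39 (SE 0.23) with an adjusted p of 0.0416 by edgeR's quasi-likelihood test. The call was lost when the library labelled vehicle Cre-positive or either day 3 library was left out. Each of those fits leaves 1 library in a group, and the cause of the loss was not tested. The log2 difference stayed between -1.16 and -1.64 over the 13 alternatives. Lower values of Birc3 at day 3 were also read in other classes, without passing. Its log2 difference was -0.96 in lymphatic endothelial-like cells (188 and 418 CPM at vehicle, 149 and 150 CPM at day 3, adjusted p = 0.985). In the Enpp2-led cluster it was -0.76 (adjusted p = 0.0709, both by edgeR). Stromal-like cells held 85.4 and 121 CPM at vehicle and 58.9 and 93.5 CPM at day 3, which overlapped. Free RNA of the CD31 libraries held 60.1 to 169 CPM, and its part was not tested. In HEV-like cells the median of the pathway list was -0.40. Of 8 genes known to be raised through the receptor in node stroma or vessels, 5 could be tested and 0 were called, with a median of -0.68. Both lists were chosen with earlier results of these data known, so these medians are a description and no test. The median over all genes is given above. Icam1, an adhesion molecule, read 568 and 790, 321 and 347, and 698 and 469 CPM (log2 -1.03, SE 0.26, adjusted p = 0.0829 by edgeR). Cxcl12 read 135 and 127, 60.8 and 89.8, and 116 and 179 CPM (log2 -0.83, SE 0.18, adjusted p = 0.0680 by edgeR).

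In blood endothelial-like cells, which include the HEV-like ones and so give no separate observation, Relb stood at 91.4 and 124, 67.0 and 70.3, and 124 and 88.6 CPM, again with both day 3 libraries lowest. The day 3 difference was -0.58 (SE 0.23), with an adjusted p of 0.231 by edgeR's quasi-likelihood test (unadjusted 0.0460) in a comparison that called 0 of the 6 members tested and 0.0% of genes. Relb passed when either day 7 library was left out (4.79% of genes called without the Cre-negative one and 4.45% without the Cre-positive one). With the library labelled vehicle Cre-positive or either day 3 library left out, 0 members had an unadjusted p under 0.05, and over the alternatives the log2 difference lay between -0.21 and -0.90. Free RNA of the same libraries held Relb at 84.8 and 110, 66.1 and 57.9, and 123 and 94.0 CPM. Its values were close to those of blood endothelial-like cells and below those of HEV-like cells in each of the 6 libraries, and its part in the differences was not tested. HEV-like cells were 282 to 716 of the 2854 to 4475 blood endothelial-like cells a library, and the part of this mix was not tested either. Nfkb2 was at 45.4 to 68.9 CPM in blood endothelial-like cells and 44.9 to 75.2 CPM in free RNA.

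**Figure D5:**
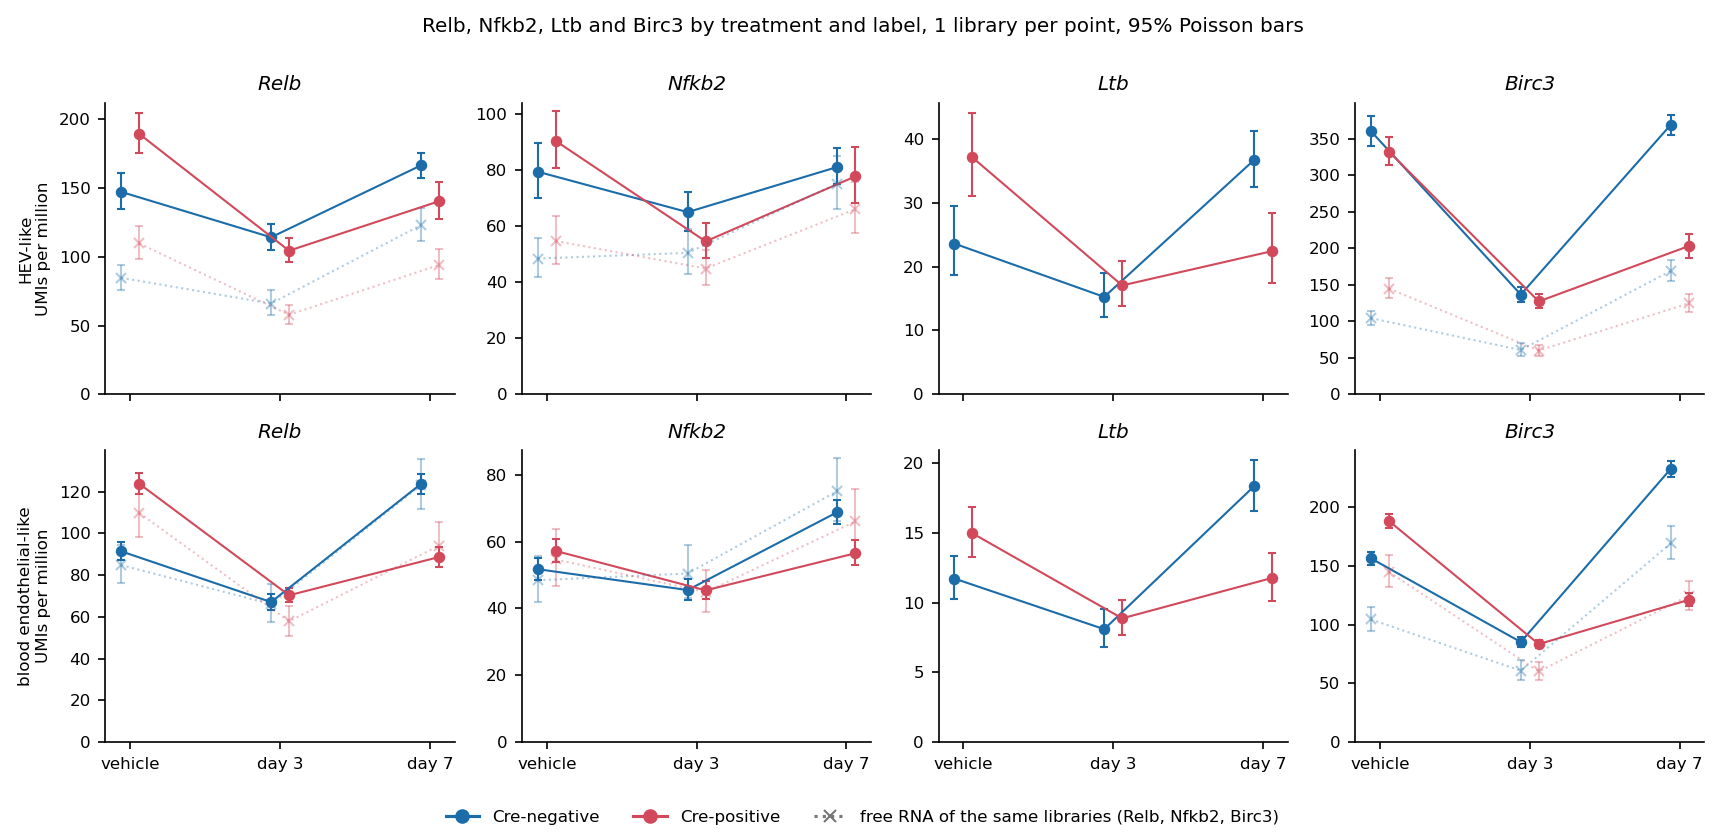
Relb, Nfkb2, Ltb and Birc3 in CPM with 95% Poisson bars in HEV-like (top) and blood endothelial-like cells (bottom), 1 library per point, with lines joining libraries of 1 label and crosses for free RNA (not drawn for Ltb, where it is 160 to 300 CPM). Both day 3 libraries are lowest in each HEV-like panel, for example at 114 and 104 CPM for Relb.

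In stroma the 7 members tested gave 0 calls, in stromal-like cells (0.0% of genes called in each comparison) and in the Enpp2-led cluster (0.0% by label and at day 7, and 7.25% at day 3). Tnfsf11 in stromal-like cells came mostly from the Syt1-led cluster, with 309 of 354 UMIs. Its log2 ratio of day 3 to vehicle was -0.86 under the Cre-negative label and 2.88 under the Cre-positive label. In the main fits of these cells at day 3 and day 7, Tnfsf11 had no unadjusted p under 0.05 by edgeR. It passed there when the vehicle library labelled Cre-negative was left out (7.59% of genes called at day 3 and 8.9% at day 7), and at day 3 with doublets kept (1.29%). Traf3 was at 46.2 and 52.1, 62.7 and 70.9, and 63.6 and 73.7 CPM in stromal-like cells, so that both vehicle libraries were lowest. Its log2 difference was 0.38 at day 3 (SE 0.15, adjusted p = 0.358) and 0.46 at day 7 (SE 0.15, adjusted p = 0.634, both by edgeR). Of all genes, 13.2% at day 3 and 6.39% at day 7 had an unadjusted p under 0.05 in these fits. Ltb in stromal-like cells was lower in each library labelled Cre-positive than in any labelled Cre-negative, at 7.80 against 19.6 CPM on average (log2 -1.37, SE 0.43, adjusted p = 0.545 by edgeR). It passed with no filter on low counts (0.508% of genes called) and without the vehicle libraries, where Tnfsf11 passed too (2.32%). In the main fit by label, 8.6% of all genes had an unadjusted p under 0.05 by edgeR. The log2 difference of Ltb lay between -0.60 and -1.87 over the alternatives. It rested on 5 UMIs in the library labelled day 3 Cre-positive, and stromal-like cells held 18.4 to 96.7 CPM of summed T cell markers, and of B cell markers other than Ebf1 they held 71.2, 58.2 and 72.8 CPM under the Cre-negative label against 21.1, 34.4 and 45.8 CPM under the Cre-positive one. These B cell markers separated the labels without overlap, as Ltb did, and the part of lymphocyte RNA in the Ltb difference was not tested. Of the target list, 2 of 8 were called at day 3 in the Enpp2-led cluster. Cxcl13 rose from 2358 and 2039 CPM at vehicle to 7367 and 5948 CPM (log2 1.66, adjusted p = 0.0136), and Cxcl12, which holds leukocytes near stroma, fell from 7467 and 6062 to 2977 and 2895 CPM (log2 -1.14, adjusted p = 0.0273, both by edgeR's quasi-likelihood test). Both calls were lost when either day 3 library was left out and in cells with a Y-linked and no Xist UMI, and that of Cxcl12 also without the library labelled vehicle Cre-negative. In those Y-linked cells 2 of 11478 genes were called, and leaving out a library leaves 1 in its group. The cause of these losses was not tested. In these fits and the others on the same cluster the log2 difference stayed between 1.49 and 1.86 for Cxcl13 and between -0.96 and -1.21 for Cxcl12. At resolution 1.5, where other cells stood for the cluster, both reversed (-0.15 and 0.21) and neither passed. Within the Saa3-led cluster Cxcl12 was at 2185 to 4904 CPM and Cxcl13 at 960 to 6720 CPM. The 6530403H02Rik-led cluster held 3770 to 8797 CPM and 1213 to 4922 CPM of the same genes, and the part of the cluster mix in both differences was not tested. In stromal-like cells Ccl19, a chemokine for T cells and dendritic cells, read 70.6 and 85.3, 210 and 221, and 208 and 197 CPM (day 3 log2 1.41, SE 0.17, adjusted p = 0.125 by edgeR).

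Cxcl13 was also called at day 3 in B cell-like cells, at a low level. It stood there at 2.89 and 3.86, 15.0 and 17.6, and 4.84 and 12.9 CPM (log2 2.28, SE 0.31, adjusted p = 0.0328 by edgeR's quasi-likelihood test). The call was lost when the library labelled vehicle Cre-positive or either day 3 library was left out, in fits that leave 1 library in a group. It was also lost with doublets kept and in cells with a Y-linked and no Xist UMI, where 0 of 11709 and 0 of 9891 genes were called. Why the call was lost in these fits was not tested. The log2 difference stayed between 1.89 and 2.67 over the alternatives. The part of Cxcl13 RNA from the Enpp2-led cluster, which was higher in both day 3 libraries, was not tested.

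By label, 0 members passed in any of the 7 classes, and the background was as low: 0.0175% of genes were called in HEV-like cells, 0.00695% in blood endothelial-like cells, 0.00773% in lymphatic endothelial-like cells, 0.0494% in T cell-like cells and 0.00858% in B cell-like cells. In T cell-like cells Map3k14 was higher in every library labelled Cre-positive (64.1, 59.8 and 56.8 CPM) than in any labelled Cre-negative (46.5, 42.2 and 46.0 CPM), with a log2 difference of 0.35 (SE 0.09) and an adjusted p of 0.199 by edgeR. Tnfsf11 in T cell-like cells read 21.6 and 20.4, 9.38 and 31.7, and 13.1 and 28.6 CPM (log2 0.83, SE 0.29, adjusted p = 0.242 by edgeR), and the labels overlapped. It passed when the vehicle libraries were left out (0.723% of genes called) and with no filter on low counts (1.32%). Over the alternatives its log2 difference lay between 0.44 and 1.33. In B cell-like cells Traf3 was at 111 and 188, 145 and 151, and 110 and 150 CPM, without overlap between labels (log2 0.34, SE 0.13, adjusted p = 0.301 by edgeR). Over all genes, 16.2% of the label tests in T cell-like cells and 14.6% in B cell-like cells had an unadjusted p under 0.05 by edgeR. How many of all genes separated the labels without overlap was not counted.

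Day 7 against vehicle called 0 members and 0.0% of genes in each of the 7 classes. This contrast takes the 4 libraries as labelled, although the germinal centre B cell-like and plasma cell-like numbers pair vehicle of each label with day 7 of the other, and the part of this in the counts was not tested. Over all 21 comparisons of class and contrast, edgeR made 138 tests of members, of which 15 (10.9%) had an unadjusted p under 0.05 and 0 passed adjustment. DESeq2 called 0 members as well, while its calls over all genes reached 963 of 22533 in the Enpp2-led cluster at day 3. Over all genes the share under 0.05 was 8.8% of the edgeR tests, near that of the members. At day 3 it reached 28.3% in the Enpp2-led cluster, 22.3% in the HEV-like class and 21.1% in the blood endothelial-like one. At day 3, 0 members passed in T cell-like cells either, where 0.0% of genes were called. The p-values measure only the spread between these libraries around an additive model, which may be technical, and both treatment contrasts share the vehicle libraries.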

How the data were processed

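Libraries were made with a 10x Genomics 3-prime kit of V2 chemistry, per the labels' protocols. The deposited values are UMI counts per gene and barcode, made by the authors with Cell Ranger 7.0.1 on build mm10 per the submitters' processing notes; the annotation and the handling of strand are not given in the sources used here. A barcode was kept as a cell if it had at least 1000 UMIs, at least 500 genes and no more than 10% of UMIs from mitochondrial genes. Scrublet's automatic threshold failed in some libraries (0 to 228 calls), so the top-scoring 0.8% per 1000 barcodes were removed as doublets, 4.78% to 9.31% of a library. In the CD31 libraries labelled vehicle Cre-negative and day 3 Cre-positive the removed barcodes were shallower than those kept (median 3932.5 against 4325 and 2203 against 3433 UMIs), unlike in the other 10.

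Each fraction was clustered with scanpy 1.11.5 (2000 variable genes without the members and lists, 30 components, 20 neighbours, Leiden resolution 1). Classes are named by fixed markers, and clusters whose leading genes held markers of another class stayed unnamed, a choice made after those genes were seen. The UMIs of a class were added up within each library, and edgeR 4.0.16 was run on these sums (TMM, default filter, label plus treatment, 2 residual degrees of freedom). The additive fit counts any interaction as error. The adjusted p threshold was 0.05. On simulated counts it recovered 93 of 108 genes changed by a log2 of 1 in blood endothelial-like cells and 84 of 110 in T cell-like cells. The whole runs, which also held larger changes, gave 10 false calls among 14389 genes and 1 among 12156. Many genes changed at once in these runs, whereas the real fits called at most 1 gene in blood endothelial-like and 6 in T cell-like cells. Recovery in the real fits may therefore be lower. The stromal fits use the CD45 libraries, not the CD31 libraries first planned, because the latter held too few stromal cells; the Enpp2-led cluster was added after it was seen. Poisson and ratio intervals are exact, at 95%. Coordinates come from GENCODE M21. DESeq2 1.42.0, other scaling, filters, depth, doublets, resolution, leaving out libraries and cells with a Y-linked and no Xist UMI (added later) were tried. All 9 members are named. Of the lists, the rule names called genes or else the 2 largest changes at 20 CPM or more; all called ones are printed, and of the others only those of HEV-like cells at day 3 and Ccl19. The members and lists were chosen with earlier results of these data known.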

Additional observations from a re-analysis of the deposited data

Results flagged for a closer look

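In 14 cases the log2 ratio of a treatment to vehicle went one way under the Cre-negative label and the other way under the Cre-positive label. Only cases with both counting intervals clear of 0 and both ratios at least 0.4 in size are listed, so smaller opposite ratios are left out. Each rests on 1 library per group, and the difference between the labels was not tested. These conditions were applied to the 9 members in the 7 fitted classes and in Treg cell-like cells, at day 3 and at day 7. The share of all genes that meet them was not counted, so the number of cases is no trait of these genes. Treg cell-like cells are part of the T cell-like class, so their cases are not separate from those of that class. Values below are the ratio under Cre-positive minus that under Cre-negative.

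Lta at day 7 differed by -3.15 in Treg cell-like cells and by -1.29 in T cell-like cells, where the ratios were 0.78 under Cre-negative and -0.51 under Cre-positive. Tnfsf11 went in the other direction. It differed by 3.74 at day 3 in stromal-like cells, where 309 of its 354 UMIs came from the small Syt1-led cluster, and by 2.31 at day 7 in the Enpp2-led cluster (-1.17 and 1.14). In T cell-like cells it differed by 1.84 at day 3 and 1.21 at day 7, and in Treg cell-like cells by 1.73 and 1.05. Ltb in HEV-like cells differed by -1.36 at day 7 (0.64 and -0.73).

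In lymphatic endothelial-like cells Map3k14 differed by -1.62 at day 3 and -0.96 at day 7, and Traf3 by -1.01 at day 3. Relb in blood endothelial-like cells differed by -0.92 at day 7 (0.44 and -0.48), and Nfkb2 in B cell-like cells by -0.98 at day 7 (0.51 and -0.46). The blood endothelial-like class holds HEV-like and capillary-like cells, with Relb at 104 to 189 and 24.4 to 44.5 CPM. Per library, 282 to 716 of its 2854 to 4475 cells were HEV-like, and the part of this mix was not tested. All 14 use the vehicle libraries, and the numbers of germinal centre B cell-like cells (212 and 18 at vehicle, 8 and 250 at day 7) change over between the labels in the CD45 libraries, while the endothelial values come from the CD31 libraries. Their part in these values was not tested.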

How the results depend on the processing

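Of 252 counts of members called under the alternatives, 234 stayed at 0, among them all 21 under DESeq2, RLE scaling, a minimum of 2000 UMIs and cells with a Y-linked and no Xist UMI, the last chosen after seeing the data. With no filter on low counts the calls were 3 in HEV-like cells at day 3 and 1 each in stromal-like cells by label, the Enpp2-led cluster at day 3, T cell-like cells by label and B cell-like cells at day 3. Keeping doublets gave 1 in stromal-like cells at day 3, and resolution 1.5 gave 1 at day 3 in the stromal clusters without a name. Leaving out single libraries, or a treatment for the label contrast, gave 0 to 3 in HEV-like cells at day 3, 0 to 1 in blood endothelial-like cells at day 3, 0 to 2 in stromal-like cells by label, 0 to 1 there at day 3 and at day 7, 0 to 1 in the Enpp2-led cluster at day 3 and 0 to 1 in T cell-like cells by label. At resolution 1.5 the day 3 differences of Cxcl12 (log2 0.21) and Cxcl13 (-0.15) reversed in what then stood for the Enpp2-led cluster: the stromal clusters without a name, led by Pcdh15, Saa3 and Ccl21a, which leave out the 6530403H02Rik-led cells. With doublets kept, the same rule took the clusters led by Cxcl12 and Ccl19. Of 189 levels, 21 moved. Medians in CPM with doublets kept were, for Lta, 0.413 in lymphatic endothelial-like cells, 0.428 in stromal-like cells and 0.652 in the stromal clusters without a name; for Ltb 31.1 and 52.2 in the 2 stromal classes, for Tnfsf14 0.285 in those without a name, and for Tnfsf11 0.574, 76.4 and 91.4 in the same order as Lta. Stromal-like cells then held Map3k14 at 49.5, Relb at 63.2 and Nfkb2 at 37.3. At resolution 1.5 stromal-like cells held Tnfsf11 at 39.98, Map3k14 at 50.9, Relb at 59.0 and Nfkb2 at 38.4, and the stromal clusters without a name Ltb at 59.3, Ltbr at 31.6, Traf3 at 93.1, Relb at 108 and Nfkb2 at 76.2. Median shares without thinning were 90.0% (T cell-like), 79.3% (B cell-like), 49.8% (lymphatic) and 3.87% (blood endothelial-like) for Ltb, 16.6% in blood endothelial-like and 0.243% in B cell-like cells of the CD31 libraries for Ltbr, and 65.2% in HEV-like and 28.2% in blood endothelial-like cells for Relb. By mean over libraries the likeness was 0.929 for Scamp1 with Ltbr, and 0.728 for Pgap2 and 0.815 for Pfkfb3 with Relb; Tcf7l2 then took the place of Scamp1, and Birc2 and Rnf19b those of Pgap2 (now at rank 38) and Pfkfb3. Beyond that, the cause of these shifts was not tested. No paired analysis was possible because each group is 1 library and the labels give no replicate numbers; the additive model already holds label and treatment as terms.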
